A study of Mus musculus with 4 samples.

Results

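The xenobiotic and hormone receptors described here are 10 ligand-responsive or closely related transcription factors of the liver, chosen by gene symbol: Nr1i2, Nr1i3, Rxra, Ahr, Arnt, Nr3c1, Nr5a2, Nr2f6, Thrb and Esr1. They are 10 of the 27027 gene entries in the count table, and all 10 lay above the filter on low counts, an average of 10 normalized reads per library, which 12113 entries passed. Male C57BL/6J mice, 9 to 12 weeks old, were fasted overnight and injected intraperitoneally with saline (vehicle-treated control) or with acetaminophen (APAP) at 300 mg/kg, a dose that causes acute liver injury (ALI). Liver RNA was taken after 24 h or 48 h and was pooled in equal shares within each group, from 6 control mice at 24 h, 6 control mice at 48 h, 7 APAP mice at 24 h and 7 APAP mice at 48 h. Each of the 4 pools was sequenced as 1 library by massive analysis of cDNA ends (MACE), which reads the 3′ ends of polyadenylated mRNA. The question addressed here is whether the mRNAs of these receptors differed between APAP and control livers while the injury resolved.

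With 1 library per group no test was possible at either time alone, and spread between mice cannot be seen in pooled RNA. Each member's fold is therefore given with a 95% exact (Clopper-Pearson) interval that covers counting error only, and a test over both times follows the members' counts. A gene is called where its fold reached 1.5 in that direction, and "normalized reads" are counts divided by the library's median-of-ratios size factor. The libraries held 4859661 to 5698778 counted reads. The control pools of 24 h and 48 h, neither of which received APAP, give the only measure of how much pools differ. Of all tested genes, 17.3% differed between them by 1.5-fold or more, and 0 of the 10 members did, where the share among genes at the members' own level was 5.87%.

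These receptors connect chemical signals to gene expression. CAR (Nr1i3) and PXR (Nr1i2) sense drugs and endogenous steroids and bile acids, pair with RXRα (Rxra), and switch on genes of drug oxidation, conjugation and export. In mice, CAR and PXR are known to influence how much APAP is converted to its toxic quinone imine. AHR pairs with ARNT after binding planar aromatic ligands, whereas the glucocorticoid, thyroid hormone and oestrogen receptors read circulating hormones, and NR5A2 and NR2F6 are orphan receptors. Receptor mRNA is only a part of this control, because ligand, nuclear entry and cofactors set the activity of a receptor, and none of these was measured.

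Short promoter sequences are shown for Nr1i3, the receptor with the largest fold, and for the members whose promoters hold the AGGTCA core that many nuclear receptors bind. They come from the RefSeq set for GRCm38.p6, the build of the deposited counts (mm10). The search covered 12 promoter entries for 8 of the 10 members. No promoter of Ahr or Nr3c1 was searched, so the counts of member promoters below leave these genes out. Capitals mark the matched letters, and the windows are written 5′ to 3′ on the strand of the gene. The Rxra and Thrb windows lie inside the annotated genes, before starts that lie further in. On these plus-strand genes the annotation begins at 27676440 for Rxra and 17660261 for Thrb.
Nr1i3, AP-1 element, chr1:171213851-171213877, plus strand: cagcttttaaTGAGTCAtgaggtcctg
Nr1i3, E-box, chr1:171213720-171213741, plus strand: aaactgCACGTGaaaaagcttg
Rxra, AGGTCA, chr2:27709234-27709259, plus strand: gtggcaggaaAGGTCAgtcactctct
Rxra, AGGTCA read from the opposite strand, chr2:27709195-27709220, plus strand: gaaatgggtgTGACCTgagtaatggt
Nr5a2, AGGTCA, chr1:136960497-136960522, minus strand: ggtttacagcAGGTCAtacatgctgg
Thrb, AGGTCA, chr14:17660766-17660791, plus strand: gagagttgacAGGTCAagggaatagg

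The letters were searched on both strands in the 250 bases before each start. TGANTCA, the AP-1 element, was found in 1 of the 12 member promoters, 109 bases before the start of Nr1i3, and in 6.75% of all 32851 promoters. CACGTG, the E-box, was found in 2 member promoters (Nr1i3 and Thrb) and in 6.02% of all. AGGTCA occurred in 3 member promoters (Rxra, Nr5a2 and Thrb) and in 14.0% of all. TGTTCT, the glucocorticoid receptor core, was in 3 member promoters (from Nr5a2 and Thrb) against 16.1% of all, and GCGTG, the AHR and ARNT core, was in 4 (from Nr5a2, Arnt, Nr2f6 and Thrb) against 28.2% of all. GGGCGG was in 3 against 32.7% of all, and TATAAA was in 2 against 12.4% of all. A match describes these letters only and says nothing about binding in these livers.

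Most of the 10 receptor mRNAs stayed within 1.5-fold of control, as did most tested genes. The counts of calls below do not set the members apart from other genes. At 24 h, 1 of 10 members was called higher (Nr1i3) and 0 were called lower, where 14.2% of all tested genes were called higher and 14.5% lower. At 48 h, 0 of 10 were called in either direction, where 13.6% of all tested genes were called higher and 14.4% lower. At a 2-fold threshold 0 members were called at either time, beside 5.85% of tested genes higher and 5.68% lower at 24 h and 5.76% and 5.61% at 48 h. Among the 5198 genes in the members' own range of mean level, 58.9 to 501 normalized reads, the shares called in either direction were 19.9% at 24 h and 17.4% at 48 h. The members' median log2 fold was -0.06 at 24 h and -0.06 at 48 h, beside 0.01 and -0.02 over all tested genes. Taking the times as replicates, edgeR's quasi-likelihood test of APAP against control over both times, with time as a block and 1 residual degree of freedom, called 594 genes higher and 1020 lower at a Benjamini-Hochberg adjusted p under 0.05 and 0 of the 10 members. Of the members, 0 had an unadjusted p under 0.05, beside 23.7% of tested genes, and Nr1i3 had the lowest adjusted p in that edgeR test (0.227, a fold of 1.28 over both times). In that test a difference between the 24 h and 48 h folds, as for Nr1i3 and Esr1, counts as residual error. It could therefore hardly call a member that differed at 1 time only.

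**Figure D1:**
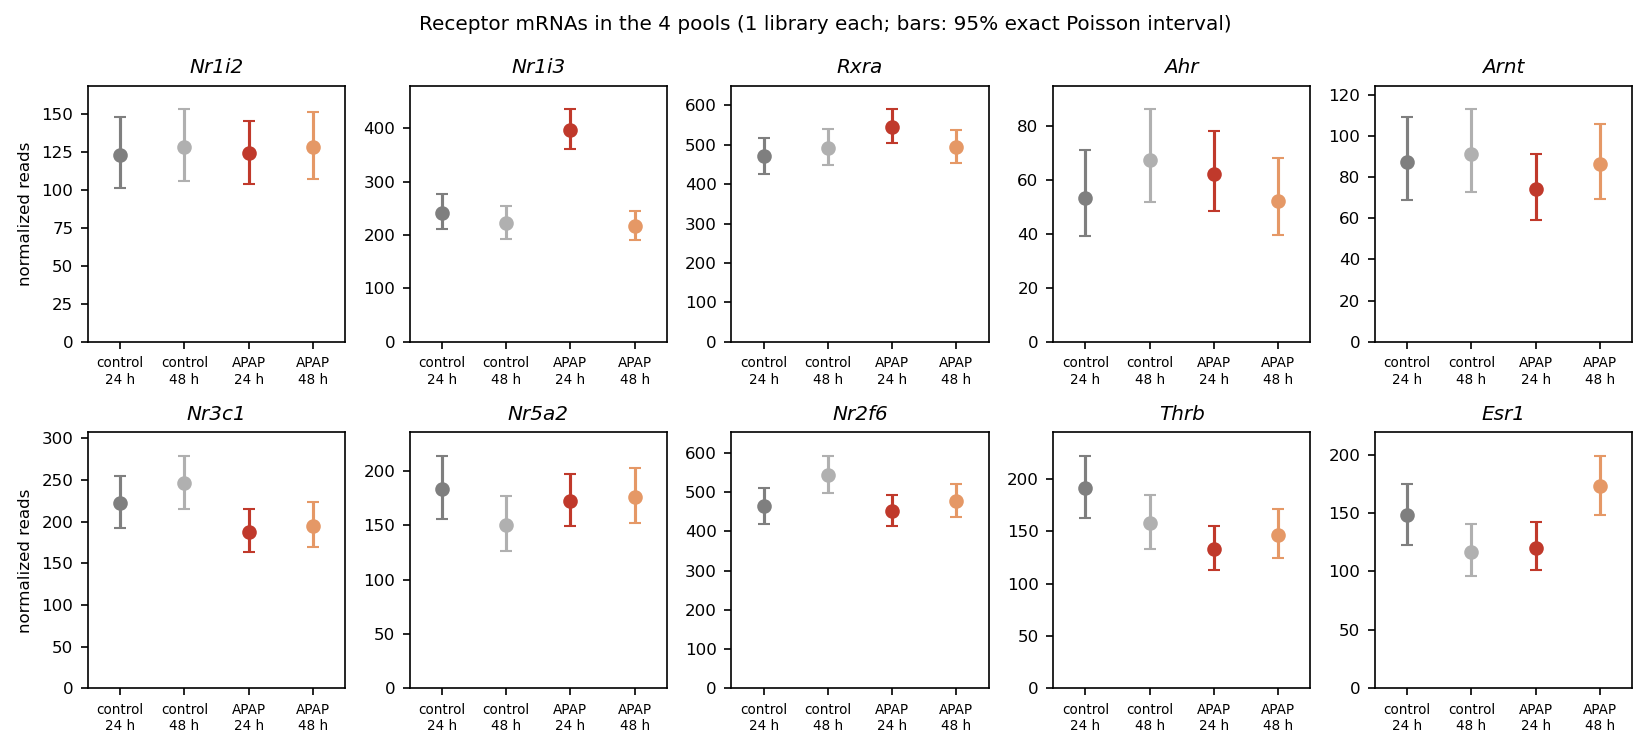
Normalized reads (vertical axes, from 0, a separate scale per gene) of the 10 receptors in the 4 libraries, with exact Poisson intervals at 95% as bars. Nr1i3 stands at 398 in the APAP pool of 24 h and between 217 and 242 in the other 3 libraries, while Nr1i2 lies between 123 and 128 in every library.

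Of the xenobiotic sensors, CAR was the member that differed most. Nr1i3 had 213 reads in the 24 h control pool, 207 in the 48 h control pool, 467 in the 24 h APAP pool and 231 in the 48 h APAP pool. In normalized reads these were 242, 222, 398 and 217. The 24 h APAP library alone stood high, and the other 3 were close together.

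The fold of Nr1i3, APAP over control, was 1.64 at 24 h (interval 1.39 to 1.94), and 10.8% of all tested genes had a fold as high or higher. It was 0.976 at 48 h (0.805 to 1.18). Against the control pool of the other time the 24 h fold was 1.79, so it did not rest on which control pool was used. Between the APAP pools the level at 48 h was 1.84 times lower than at 24 h, the only call among the members in that comparison, in which 9.11% of tested genes were called lower and 9.04% higher. The ratio of the 48 h fold to the 24 h fold was 0.594 (0.460 to 0.767).

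The 3′ end of Nr1i3 (chromosome 1, 171213970 to 171220701, plus strand) lies within an exon of Tomm40l on the opposite strand. The annotated 3′ ends of these genes lie 4690 bases apart, and the last 300 bases of Tomm40l overlap no exon of Nr1i3. Whether the authors counted by strand is not stated. Reads of the Nr1i3 end may therefore not be separable from any Tomm40l reads there, and the Nr1i3 level is uncertain to that extent. The entry of Hspa8 carries identifiers with the prefix "as__", and that of Ugdh joins several genes with "#or#". The entries of Nr1i3 and Tomm40l carry neither mark, and the meaning of the marks is not stated. Tomm40l, which encodes a mitochondrial import channel, had 56, 49, 71 and 58 reads in control 24 h, control 48 h, APAP 24 h and APAP 48 h, and its folds were 0.95 at 24 h and 1.04 at 48 h. The part of this overlap in the Nr1i3 values was not tested.

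PXR showed no such difference. Nr1i2 had 108, 119, 145 and 136 reads in control 24 h, control 48 h, APAP 24 h and APAP 48 h, or 123, 128, 124 and 128 normalized reads. No neighbouring levels in that order differed beyond counting error. The folds were 1.01 at 24 h (0.779 to 1.30) and 0.999 at 48 h (0.776 to 1.29). With size factors, a change of more than about 1.30-fold upwards thus lay outside the counting interval at either time. Scaled by library totals, the folds were 1.14 (0.886 to 1.48) and 1.20 (0.933 to 1.55).

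RXRα is the shared partner of CAR, PXR, the thyroid hormone receptors and several lipid and bile acid receptors. Rxra had 414, 459, 641 and 527 reads in the order given for Nr1i2, or 471, 492, 546 and 494 normalized reads. Its fold was 1.16 at 24 h (1.02 to 1.32) and 1.0 at 48 h (0.884 to 1.14). The 24 h value lay above 1 beyond counting error. It was smaller than the largest difference of a member between control pools, 1.26-fold for Ahr and Esr1, whose control intervals held 1. The control pools of Rxra itself differed 1.05-fold (0.914 to 1.20).

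Ratios of reads within a library do not depend on scaling. There were 1.97 Nr1i3 reads per Nr1i2 read in the 24 h control pool (1.56 to 2.51), 1.74 in the 48 h control pool (1.38 to 2.20), 3.22 in the 24 h APAP pool (2.67 to 3.91) and 1.70 in the 48 h APAP pool (1.37 to 2.12). The interval of the 24 h APAP pool did not meet that of any other library. Per Rxra read the Nr1i3 counts were 0.514, 0.451, 0.729 and 0.438 in the same order, again with the 24 h APAP pool apart, whereas Nr1i2 per Rxra stayed between 0.226 and 0.261.

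**Figure D2:**
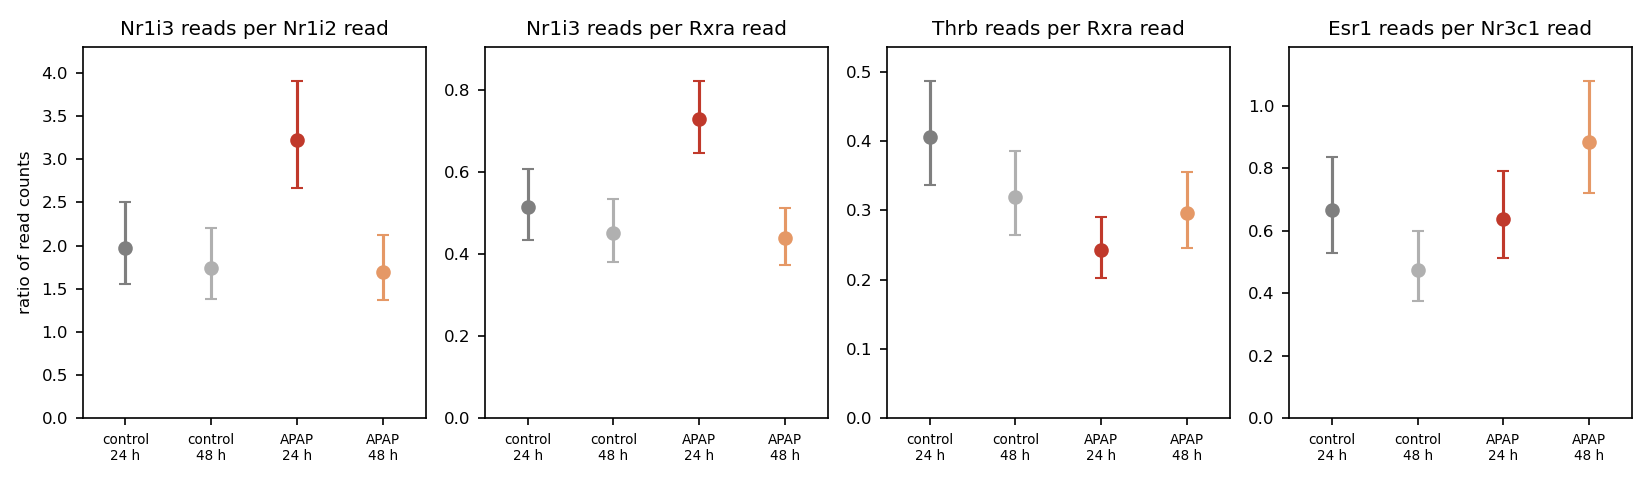
Reads of a receptor per read of another receptor in the same library (vertical axes, from 0), with 95% exact intervals as bars, for the 4 pools. Nr1i3 per Nr1i2 is 3.22 in the APAP pool of 24 h and 1.70 to 1.97 elsewhere, and Esr1 per Nr3c1 is highest, at 0.885, in the APAP pool of 48 h.

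AHR and ARNT, which act as a pair, were the least deeply counted members. Ahr had 47, 63, 73 and 56 reads in control 24 h, control 48 h, APAP 24 h and APAP 48 h, or 53.4, 67.5, 62.2 and 52.5 normalized reads. Arnt had 77, 85, 87 and 92 reads, or 87.5, 91.1, 74.1 and 86.3 normalized reads. For each gene the highest and lowest libraries did not differ beyond counting error.

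The folds of Ahr were 1.16 at 24 h (0.796 to 1.72) and 0.777 at 48 h (0.532 to 1.13). Its control pools themselves differed 1.26-fold, with the higher level at 48 h, and against the 24 h control pool the 48 h fold was 0.983. The folds of Arnt were 0.847 (0.616 to 1.17) and 0.946 (0.697 to 1.29). Ahr reads per Arnt read ran from 0.609 to 0.839 over the libraries. At this depth a 1.5-fold difference of Ahr at 24 h could not be told from none.

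Among the hormone receptors, Thrb was lowest at 24 h and Esr1 highest at 48 h, and Nr3c1 lay below both controls at both times. Nr3c1 encodes the glucocorticoid receptor, through which fasting and stress signals reach the liver. It had 195, 229, 221 and 208 reads in control 24 h, control 48 h, APAP 24 h and APAP 48 h, or 222, 246, 188 and 195 normalized reads. Both APAP libraries were below both control libraries. The folds were 0.849 at 24 h (0.697 to 1.03) and 0.794 at 48 h (0.655 to 0.963), within the spread of the members between control pools.

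Thrb encodes the thyroid hormone receptor that predominates in hepatocytes. It had 168, 147, 156 and 156 reads in the same 4 libraries, or 191, 158, 133 and 146 normalized reads. The APAP libraries were again the lowest, with the 48 h control next to them. The fold at 24 h was 0.696 (0.556 to 0.870), which is 1.44 times lower and short of a call, and 17.1% of all tested genes had a fold as low or lower.

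Part of this Thrb difference came with the 24 h control pool, which was the highest library. Against the 48 h control pool the 24 h fold was 0.843 (0.669 to 1.06). At 48 h the fold was 0.928 (0.736 to 1.17). The ratio of the 48 h fold to the 24 h fold was 1.33 (0.963 to 1.85), so the times did not differ beyond counting error. Thrb reads per Rxra read were 0.406, 0.320, 0.243 and 0.296 in control 24 h, control 48 h, APAP 24 h and APAP 48 h.

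Esr1 encodes oestrogen receptor α, which is also active in male liver. It had 130, 109, 141 and 184 reads in control 24 h, control 48 h, APAP 24 h and APAP 48 h, or 148, 117, 120 and 173 normalized reads. The 48 h APAP pool was the highest and the 48 h control pool the lowest. The fold was 0.813 at 24 h (0.636 to 1.04) and 1.48 at 48 h (1.16 to 1.89), just short of a call, and 14.5% of all tested genes had a 48 h fold as high or higher.

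The control pools differed for Esr1 by as much as any member in the downward direction, with a fold of 0.791 from 24 h to 48 h. Against the 24 h control pool the 48 h fold was 1.17 (0.927 to 1.47), and its interval then held 1. Against both control pools summed it was 1.31 (1.07 to 1.59). Between the APAP pools the level at 48 h was 1.44 times that at 24 h (1.15 to 1.80), and the ratio of the 48 h fold to the 24 h fold was 1.82 (1.28 to 2.58). Nr1i3 and Esr1 were the 2 of 10 members for which the interval of this ratio left out 1, as it did for 19.8% of all tested genes. Esr1 reads per Nr3c1 read were 0.667, 0.476, 0.638 and 0.885 in control 24 h, control 48 h, APAP 24 h and APAP 48 h.

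**Figure D3:**
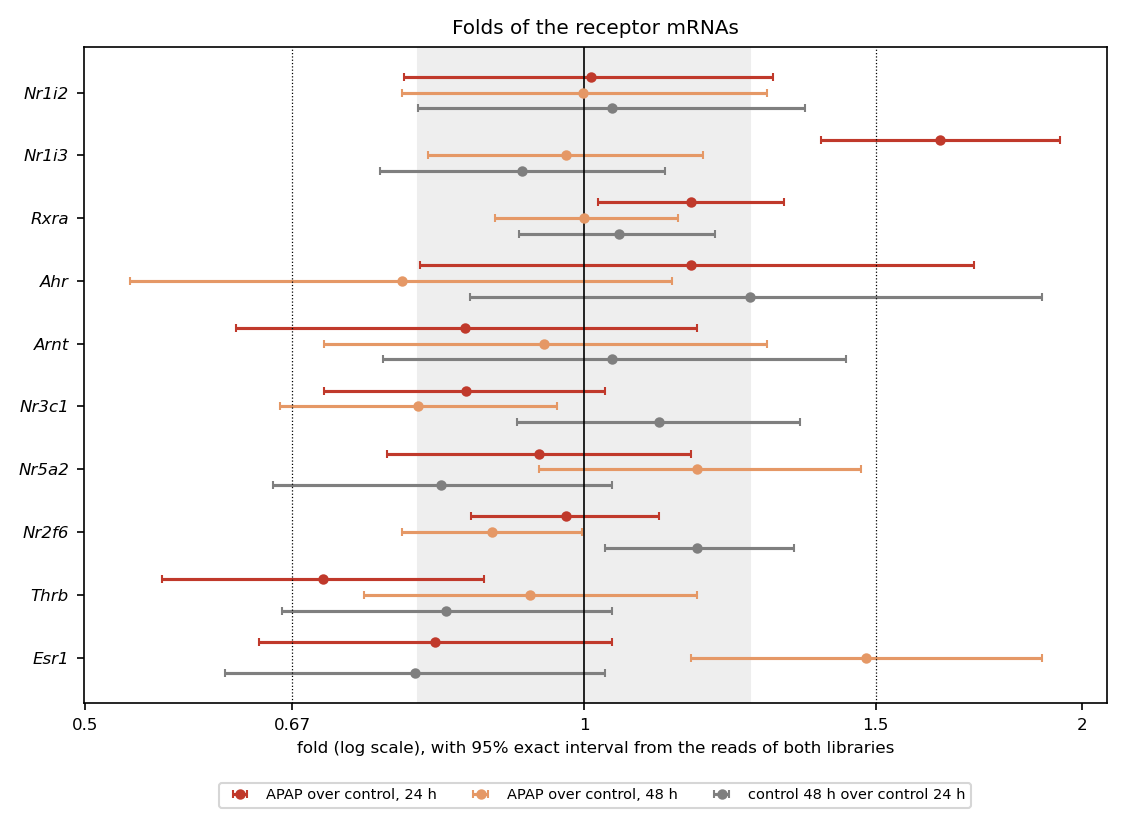
Folds (horizontal log axis) of the 10 receptors with 95% exact intervals, for APAP over control at 24 h (dark red) and 48 h (orange) and for control at 48 h over control at 24 h (grey). The shaded band marks the largest difference of a member between control pools, 1.26-fold in either direction, and dotted lines mark 1.5-fold. Nr1i3 at 24 h is the only fold past a dotted line, and Thrb at 24 h (0.696), Ahr at 48 h (0.777) and Esr1 at 48 h (1.48) lie outside the band but inside the lines.

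The orphan receptors NR5A2, a regulator of bile acid and cholesterol genes, and NR2F6, a relative of the COUP transcription factors, were close to control. Nr5a2 had 161, 140, 202 and 188 reads in control 24 h, control 48 h, APAP 24 h and APAP 48 h, or 183, 150, 172 and 176 normalized reads. Both APAP libraries lay between the control libraries. Its folds were 0.940 at 24 h (0.760 to 1.16) and 1.17 at 48 h (0.939 to 1.47).

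Nr2f6 had 408, 507, 531 and 510 reads in the same order, or 464, 544, 452 and 478 normalized reads. The 48 h control pool stood highest. The folds were 0.975 at 24 h (0.855 to 1.11) and 0.880 at 48 h (0.776 to 0.997), and the control pools themselves differed 1.17-fold (1.03 to 1.34), the only member of 10 for which that interval left out 1, beside 18.9% of tested genes. The 3′ end of Nr2f6 lies in an exon of Ocel1 on the opposite strand. The annotated 3′ ends lie 5238 bases apart, and the last 300 bases of Ocel1 overlap no exon of Nr2f6. Reads of the Nr2f6 end too may not be separable from any Ocel1 reads there. Ocel1 had 38, 31, 73 and 60 reads. The entries of Nr2f6 and Ocel1 also lack the marks described for Hspa8 and Ugdh.

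The members' own intervals and the control pools order these results. Intervals left out 1 for 3 members at 24 h (Nr1i3 and Rxra above, Thrb below) and for 3 at 48 h (Esr1 above, Nr3c1 and Nr2f6 below), beside 15.4% of all tested genes above and 18.3% below at 24 h, and 13.9% and 18.9% at 48 h. For 4 members (Nr1i2, Ahr, Arnt and Nr5a2) the interval held 1 at both times. Folds past the largest difference between control pools, 1.26-fold, were found for 2 members at 24 h (Nr1i3 and Thrb) and for 2 at 48 h (Esr1 and Ahr), beside 51.0% and 50.5% of all tested genes and 42.6% and 39.1% of genes at the members' level. Scaling by library totals raised every log2 fold by 0.19 at 24 h and 0.27 at 48 h. Under it Nr5a2 at 24 h moved from 0.940 to 1.07. Nr2f6 moved from 0.975 to 1.11 at 24 h and from 0.880 to 1.06 at 48 h. Nr1i2, Nr1i3, Arnt and Thrb at 48 h moved to 1.20, 1.17, 1.14 and 1.12. All of these folds went from below 1 to above it.

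Genes with the most similar pattern over the 4 libraries were sought by the Euclidean distance of log2 levels centred on each gene's mean, among 4390 genes averaging 100 or more normalized reads. The nearest to Nr1i3 was Slc6a9, a glycine transporter, at a distance of 0.0724, with 125, 122, 215 and 113 normalized reads in control 24 h, control 48 h, APAP 24 h and APAP 48 h. Purb was nearest to Esr1 (0.0796), Larp1b to Thrb (0.0447), Dhx15 to Nr3c1 (0.0245), Jagn1 to Rxra (0.0057) and Sem1 to Nr1i2 (0.0196). March8 was nearest to Ahr, Pex13 to Arnt, Tnfaip1 to Nr5a2 and Nsf to Nr2f6, at distances of 0.0113 to 0.0459. With 4 libraries many genes share such a pattern.

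Other nuclear receptors give the setting of the 10 members. Of 41 listed, 27 were tested, 11 fell under the filter and 3 had no entry under their symbol. At 24 h 1 was called higher and 5 lower, and at 48 h 2 higher and 7 lower, beside the shares of all tested genes given above, with median log2 folds of -0.26 and -0.10. With library totals the lower calls were 2 and 4.

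Nr3c2, the mineralocorticoid receptor, had a fold of 0.406 at 24 h (0.290 to 0.564) and 0.874 at 48 h. Nr1d1, the clock repressor REV-ERBα, had 82, 34, 72 and 70 reads in control 24 h, control 48 h, APAP 24 h and APAP 48 h, with folds of 0.658 at 24 h and 1.80 at 48 h, the latter set against a low 48 h control pool.

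The hepatocyte receptors HNF4α (Hnf4a), LXRα (Nr1h3) and FXR (Nr1h4) were not called, with folds at 24 h of 1.17, 0.833 and 0.823 and at 48 h of 0.942, 0.974 and 0.940. Of the partners of RXRα, 10 of 13 were tested, with 0 higher and 1 lower at 24 h (Thra, 0.656, interval 0.423 to 1.01) and 1 higher and 1 lower at 48 h (Rarg, 1.52, interval 0.773 to 3.08, with 13 to 26 reads per library and named after its values were seen, and Ppard, 0.608). Ppara, the fatty acid receptor, had folds of 0.794 and 0.768. Of the other AHR and ARNT relatives only Epas1, which encodes the hypoxia factor HIF-2α, was tested among 4, with folds of 1.54 (1.31 to 1.82) and 1.01. Hif1a had 5 to 8 reads per library, and Ahrr, the AHR repressor, had 0 reads in all 4 libraries.

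Target genes that the literature assigns to these receptors reached lower folds than the receptors in every list. The CAR and PXR, glucocorticoid and thyroid hormone lists also reached higher folds than the receptors, whose highest were 1.64 at 24 h and 1.48 at 48 h. The AHR targets (at most 1.44 and 1.43) and NR5A2 targets (at most 1.43 and 1.09) did not. Of the CAR and PXR targets, 19 of 24 were tested, with 4 called higher and 8 lower at 24 h and 2 higher and 8 lower at 48 h, and a median log2 fold of -0.40 at either time. Of all tested genes, 14.2% were called higher and 14.5% lower at 24 h, and 13.6% and 14.4% at 48 h. These shares, and median log2 folds of 0.01 and -0.02, also stand beside the target lists that follow. Cyp3a11, the main PXR-inducible P450 enzyme, had 2215, 1924, 544 and 188 reads in control 24 h, control 48 h, APAP 24 h and APAP 48 h. Its folds were 0.184 (0.167 to 0.202) and 0.0854 (0.0732 to 0.0993), while the folds of Nr1i2 were 1.01 and 0.999.

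Cyp2c29, another inducible P450, had 5312, 4279, 1139 and 1143 reads and folds of 0.161 and 0.234. Aldh1a1, a retinal dehydrogenase, had folds of 0.461 and 0.410, and Gstm1, a glutathione transferase, 0.650 and 0.556. The opposite direction was seen for Cyp3a13 (425, 480, 1065 and 1124 reads, folds of 1.88 and 2.05) and, at 24 h, for Por (1.61, interval 1.45 to 1.78), the electron donor of P450 enzymes, and Slco1a4 (1.69, interval 1.19 to 2.42), an organic anion importer. The remaining higher call at both times was Gadd45b, a stress gene with 1, 2, 46 and 15 reads, named after its values were seen. Its ratios of normalized reads were 34.5 (interval 5.88 to 1390) and 6.56 (1.53 to 59.1). Slco1a4 differed between control pools, with 48 and 113 reads. Cyp2b10, the classic CAR target, had 25, 55, 26 and 30 reads, and its folds of 0.779 and 0.477 were set against unequal control pools. It was singled out after its values were seen.

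Of the AHR targets, 4 of 10 passed the filter, and Cyp1a2 was the only call, lower at both times. It encodes a P450 that oxidises APAP, and it had 2681, 3122, 793 and 1131 reads with folds of 0.222 (0.204 to 0.240) and 0.317 (0.296 to 0.339). Nqo1, a quinone reductase, had folds of 1.44 and 1.05, Tiparp, an AHR-induced ADP-ribosyltransferase, 1.32 and 1.43, and Ugdh 1.14 and 0.860. Cyp1a1, the most inducible AHR target, named after its values were seen, had 4, 10, 5 and 16 reads.

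Of the glucocorticoid targets, all 18 were tested, with 13 called higher and 1 lower at 24 h and 12 higher and 1 lower at 48 h. The median log2 folds were 1.23 and 1.36. The genes that led were the metallothioneins, metal-binding proteins that also respond to zinc and oxidants. Mt1 had 620, 683, 15298 and 6428 reads in control 24 h, control 48 h, APAP 24 h and APAP 48 h and folds of 18.5 (17.1 to 20.1) and 8.23 (7.60 to 8.92), and Mt2 had folds of 34.3 and 7.90.

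Lcn2, an acute-phase protein driven by inflammatory signals as well, had 3710, 673, 11781 and 3474 reads and folds of 2.38 and 4.51, with control pools far apart. Fkbp5, a cochaperone that restrains the glucocorticoid receptor, was higher at both times (4.63, interval 3.59 to 6.05, and 3.12, interval 2.44 to 4.03). Angptl4, a lipase inhibitor also under PPAR control, was higher at 24 h only (3.92 and 0.934). The liver enzymes Tat and Tdo2, classic targets, had folds of 0.859 and 1.07, and 1.01 and 1.40, and G6pc, the glucose-releasing phosphatase, was lower (0.227 and 0.335).

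Of the thyroid hormone targets, 11 of 12 were tested, with 2 called higher and 7 lower at 24 h and 1 higher and 8 lower at 48 h, and median log2 folds of -1.42 and -1.08. The leading genes serve fatty acid synthesis, which insulin and feeding also control. Thrsp had 7851, 8945, 640 and 606 reads and folds of 0.0611 (0.0563 to 0.0662) and 0.0592 (0.0545 to 0.0643), Fasn, the fatty acid synthase, 0.112 and 0.129, and Me1, malic enzyme, 0.123 and 0.134. Klf9, a target of both thyroid hormone and glucocorticoid, was higher (2.29 and 2.73), as was Bcl3 at 24 h (1.90, then 0.970 at 48 h).

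Of the NR5A2 targets, all 10 were tested, with 0 higher and 5 lower at each time and median log2 folds of -0.41 and -0.65. Cyp8b1, the sterol 12α-hydroxylase, had 2717, 2122, 412 and 475 reads and folds of 0.114 (0.102 to 0.126) and 0.196 (0.177 to 0.216). Cyp7a1, the rate-limiting enzyme of bile acid synthesis, had folds of 0.153 and 0.477, and Cyp27a1 0.614 and 0.400. Apoa1, Abcg5, Abcg8 and Scarb1, which serve lipid export and uptake, had folds from 0.836 to 1.43 over both times. Several genes stand in more than 1 of these lists, among them Klf9, G6pc, Cyp7a1, Nr0b2 and Fkbp5, so the lists do not count independent genes.

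**Figure D4:**
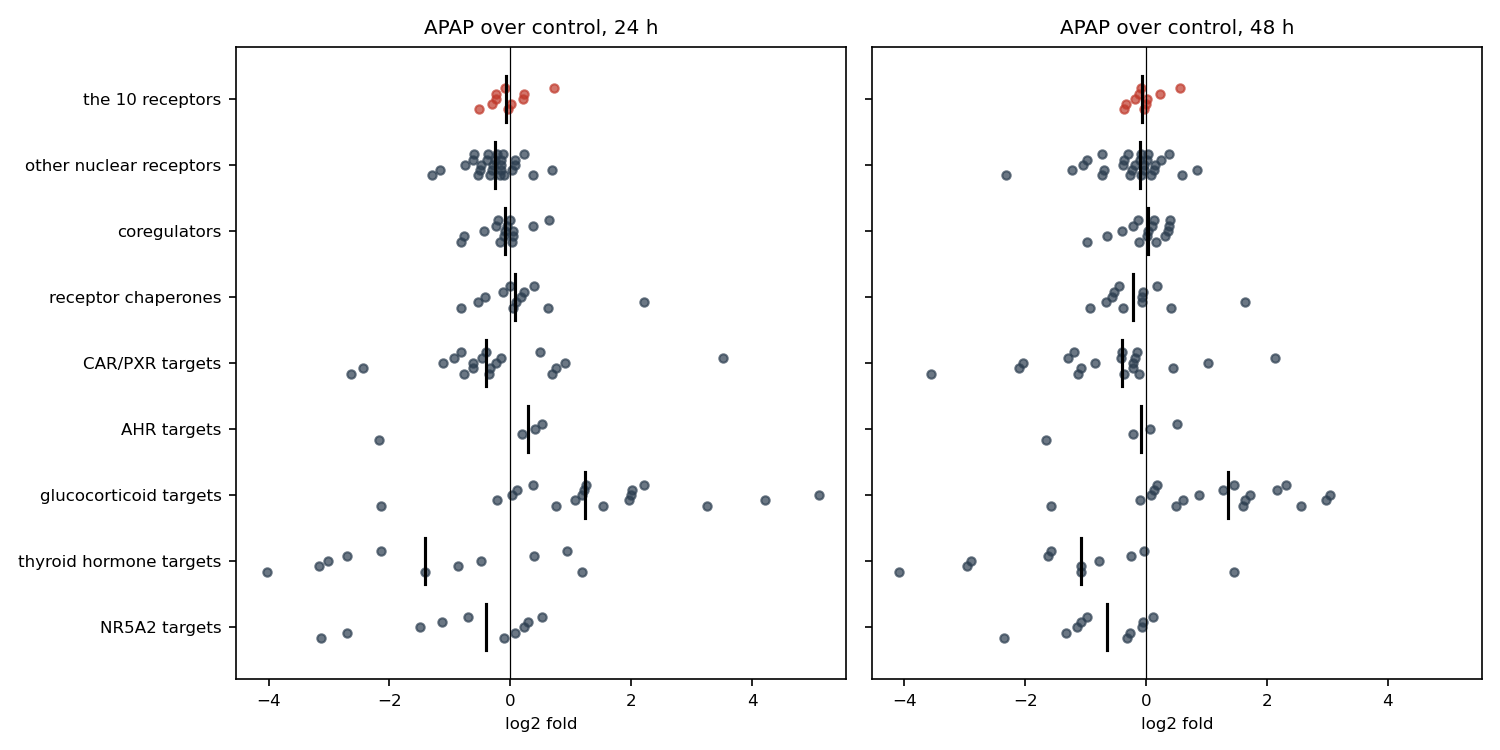
Log2 folds (horizontal axis) of the tested genes of each list, 1 point per gene, for APAP over control at 24 h (left) and 48 h (right), with vertical bars at the medians. The 10 receptors (red) cluster around their medians of -0.06, while the medians of glucocorticoid targets are 1.23 and 1.36 and those of thyroid hormone targets -1.42 and -1.08.

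The mRNAs of proteins that work with the receptors were called about as often as all tested genes (14.2% higher and 14.5% lower at 24 h, 13.6% and 14.4% at 48 h). Of 15 coregulators, all tested, 1 was called higher and 2 lower at 24 h (Prmt1, 1.56, and Med1, 0.569, among them) and 0 higher and 2 lower at 48 h. Nr0b2, which encodes the corepressor SHP, had 243, 253, 301 and 147 reads and folds of 0.928 and 0.508 (0.412 to 0.625). The corepressor gene Ncor1 had folds of 0.85 and 1.07, and the coactivator gene Ncoa1 had folds of 0.888 and 1.1.

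Of 12 receptor chaperones, 2 were called higher and 1 lower at 24 h and 1 higher and 2 lower at 48 h. Fkbp4, the cochaperone that favours glucocorticoid receptor activity and is the counterpart of Fkbp5, was lower at both times (0.569, interval 0.517 to 0.627, and 0.523, interval 0.474 to 0.578). There were 987 Fkbp4 and 70 Fkbp5 reads in the 24 h control pool and 750 and 433 in the 24 h APAP pool. Hsp90aa1 and Hsp90ab1 encode the HSP90 proteins that hold steroid receptors and AHR in the cytosol. Their folds were 1.31 and 0.631, and 0.917 and 0.734.

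The RNA was that of whole liver, in which fewer cells of a type and less RNA per cell cannot be told apart. Hepatocyte markers, led by albumin (Alb, folds of 0.873 and 0.989), were present in all libraries: 9 of 10 had an entry, and all 9 had reads in every library. Their sums were 0.975 and 1.04 of control at 24 h and 48 h. Alb alone gave 237000 of the 467000 normalized reads in the 24 h control pool. Single markers had folds of 0.561 to 2.7 at 24 h, with 1 called higher and 1 lower, beside 14.2% and 14.5% of all tested genes. At 48 h the folds were 0.842 to 1.43, with 0 called, beside 13.6% of tested genes higher and 14.4% lower. Pericentral markers, which mark the hepatocytes around the central vein where APAP is oxidised, were lower for 11 of 11 tested at both times. Their normalized reads summed to 20100 and 22700 in control livers and to 7690 and 6510 in APAP livers, or 0.383 and 0.288 of control. Cyp2e1, the most read of them and an APAP-oxidising P450, had folds of 0.623 and 0.369, and Cyp1a2 is in this list too. Periportal markers summed to 0.705 and 0.844 of control, with 1 higher and 5 lower of 10 at 24 h and 2 higher and 1 lower at 48 h, and Ass1, a urea cycle enzyme, had folds of 0.479 and 0.716.

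Among markers of other cell types, myeloid and stellate cell lists had the most higher calls in APAP livers. Myeloid markers summed to 824 and 807 normalized reads in control livers and to 1320 and 1900 in APAP livers at 24 h and 48 h. Of 13 tested, 8 and 9 were called higher and 1 and 0 lower. Of all tested genes, 14.2% and 13.6% were called higher and 14.5% and 14.4% lower. Stellate cell markers summed to 1.27 and 2.24 of control, with 3 and 6 of 8 higher and 1 and 0 lower. Cholangiocyte markers summed to 2.78 and 1.69 with 2 of 2 tested higher, but Krt19, Krt7 and Epcam of the 5 listed fell under the filter. Endothelial markers summed to 1.1 and 1.05 with 2 of 8 higher at each time. Among the most read of these, Lyz2 of myeloid cells had folds of 3.42 and 5.39, Sox9 of cholangiocytes 3.97 and 1.79, Dcn of stellate cells 1.37 and 1.48, and Clec4g of sinusoidal endothelium 0.940 and 0.902. Every marker with an entry had reads in all 4 libraries. These shifts accompanied both the receptor and the target values, and their part in them was not tested.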

How the data were processed

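Liver RNA pools from 4 groups (control and APAP, 24 h and 48 h) were read as 1 MACE library each. The authors removed duplicate reads by molecular identifiers, trimmed bases with cutadapt, clipped poly(A) tails, mapped to mm10 and deposited raw counts per gene from HTSeq. Versions and the strand setting are not given in the sources used here. The same table holds the authors' RPM values, log2 ratios, p-values and false discovery rates, which were not used. No column of another sample was present (0 columns).

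DESeq2 1.42.0 in R 4.3.3 gave median-of-ratios size factors from the deposited counts, and folds with intervals in Python 3.11.15 and scipy 1.17.1. A denominator of 3 or fewer reads was set to 3, the floor used for a count of 0, and 12113 entries averaging 10 or more normalized reads were tested. Size factors were 0.880, 0.933, 1.17 and 1.07 for control 24 h, control 48 h, APAP 24 h and APAP 48 h. The interval of the ratio of folds was exact and conditional on the margins of the 4 counts. Counts were also simulated with Poisson error only, so without spread between pools, and with 200 genes changed 2.5-fold, all with a mean of 50 or more. At each time 100 of 100 raised and 100 of 100 lowered genes were called, which checks the arithmetic and not the spread between pools. Of unchanged tested genes, 8.14% were called at 24 h and 8.89% at 48 h. Among those with a mean of 50 or more, as all members have, 0.724% and 1.03% were called.

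Members and lists were chosen with earlier results of these data known. Named genes were the members and, of each list, up to 4 genes with the most reads and the 2 highest and 2 lowest folds at each time among genes averaging 20 or more normalized reads. Of each marker list the gene with the most reads was named. Neighbouring and overlapping genes were taken from GENCODE M21. A quasi-likelihood test in edgeR 4.0.16 of APAP against control over both times, with time as a block, was added after seeing the data. Alternatives were TMM factors, library totals, a pseudocount of 1 without the floor, a floor of 10 reads, other control pools, a 2-fold threshold, the interval alone and no filter on low counts. Some genes that this rule names are not reported here.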

Additional observations from a re-analysis of the deposited data

Results flagged for a closer look

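For 2 of the 10 receptors the APAP effect differed between 24 h and 48 h by an interval of the difference itself, which covers counting error of the libraries and not the spread between mice. The ratio of the 48 h fold to the 24 h fold was 0.594 for Nr1i3 (0.460 to 0.767), whose fold went from 1.64 to 0.976. It was 1.82 for Esr1 (1.28 to 2.58), whose fold went from 0.813 to 1.48, and the Esr1 control pools differed with a fold of 0.791. For the other 8 members the interval of this ratio held 1. Over all tested genes it left out 1 for 19.8%, so 2 of 10 is near the background.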

How the results depend on the processing

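Each receptor fold kept its direction of call, or lack of a call, under most alternatives, and no fold that was called changed sign. With library totals, which favour higher calls (71.2% of calls at 24 h and 77.0% at 48 h were higher, against 49.5% and 48.6% with size factors), Rxra was at 1.32 and 1.21 and Nr2f6 at 1.06 at 48 h, and 1 member, Esr1 (1.77), was called higher at 48 h. With the control pool of the other time Nr2f6 was at 0.832 at 24 h and 1.03 at 48 h. By the interval alone, 2 members were higher and 1 lower at 24 h, and 1 higher and 2 lower at 48 h. At 2-fold, 0 members were higher at 24 h, so the Nr1i3 call depends on the threshold.

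The counts of calls in the lists moved by over 1.5 times under 3 settings. At 2-fold, nuclear receptors had 0 higher and 2 lower at 24 h and 0 and 3 at 48 h, RXR partners 0 in all, the HIF relative 0, CAR and PXR targets 1 higher and 3 lower at 24 h, thyroid hormone targets 1 higher at 24 h, coregulators 0 in all and chaperones 1 higher and 0 lower at 24 h and 0 lower at 48 h. With TMM, nuclear receptors had 3 lower and RXR partners 0 lower at 24 h. With library totals, lower calls were 2 and 4 for nuclear receptors, 0 and 0 for RXR partners, 1 and 1 for coregulators, 5 at 24 h for CAR and PXR targets and 1 at 48 h for chaperones, and higher calls were 2 and 1 for AHR targets, 1 at 24 h for NR5A2 targets, and 3 for coregulators and 2 for chaperones at 48 h.

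The remaining 253 values stayed within their interval or within 1.5 times. With control and APAP libraries paired by time, the edgeR test over both times, added after seeing the data, called 0 members with the replicate block and 0 without it, and 594 higher and 1020 lower against 261 and 520 genes. No library could be left out of a group. Depth limits Ahr most, with 47 to 73 reads per library.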
